A study of Mus musculus with 46 samples.

Results

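Neuropeptides are short secreted signals that neurons cut from larger precursor proteins, store in dense-core vesicles and release beside their fast transmitters, to act on G protein-coupled receptors of nearby cells. In the accumbens, the ventral part of the striatum, which takes part in reward, they mark distinct cells: the spiny projection neurons make tachykinins and CART peptide among others, and sparse interneurons make somatostatin together with neuropeptide Y. The 9 genes described here were taken by symbol from the authors' comparison table, where each had exactly 1 row, out of 25801 genes with a usable symbol. They were Cartpt, Sst, Npy, Vip, Cck, Tac1, Tac2, Crh and Trh. Of these, 5 (Cck, Vip, Sst, Tac2 and Cartpt) had a log2 value on every array, among 16253 genes with such values, and all 5 were among the 9596 genes bright enough to be tested. For the other 4 (Npy, Tac1, Crh and Trh) only the authors' S-scores were used. An S-score is a signed, standardised difference of 1 nicotine mouse from the saline mice of its strain and phase, not a fold change.

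RNA of the nucleus accumbens of 46 male mice was measured on Affymetrix MTA 1.0 arrays, 1 mouse per array, to ask how nicotine and its removal change expression in 2 inbred strains, DBA/2J and C57BL/6J. A minipump under the skin gave nicotine at 24 mg/kg/day, or saline, for 14 days. In the chronic groups it stayed in place until death. In the withdrawal groups it had been taken out 24 hours earlier, so saline withdrawal mice went through that operation too. The DBA/2J groups held 6 chronic nicotine, 6 chronic saline, 5 withdrawal nicotine and 6 withdrawal saline mice. The C57BL/6J groups held 5 chronic nicotine, 6 chronic saline, 6 withdrawal nicotine and 6 withdrawal saline mice. Of 15 marker genes of striatal spiny neurons, 13 had array values and all 13 were bright enough to be tested. So were 9 of 14 genes of cortical excitatory neurons, which lie outside the accumbens. Because markers of both kinds passed, this cannot tell accumbens from neighbouring tissue. In such bulk tissue, fewer cells of a type and less RNA per cell cannot be told apart. The labels give no age, cage, date or batch.

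The features measured overlapped the genes whose names they carry. The coordinates in the authors' table, which names no build, overlapped the RefSeq gene of the same name in GRCm38.p6 for 9 of 9 members. Cck lies on chromosome 9 (121489824 to 121495694), Vip and Tac2 on chromosome 10 (5639218 to 5647614 and 127724478 to 127731768), Sst on chromosome 16 (23889579 to 23890844) and Cartpt on chromosome 13 (99898483 to 99900683). Npy, Tac1 and Trh lie on chromosome 6 and Crh on chromosome 3. A feature is read by 30 probes (Sst, Crh, Trh) to 120 probes (Tac1). It need not cover the whole gene: that of Cartpt ends at 99900683, while the RefSeq gene runs on to 99910179, and that of Sst ends at 23890844, against 23891342 for the gene.

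Promoters of the members are shown because Cck and Vip moved together from mouse to mouse, Tac2 differed between the strains, and Sst and Cartpt carry a complete cAMP response element, the site bound by CREB-family factors that was first described in the somatostatin gene. The RefSeq promoter table (GRCm38.p6) held 8 of the 9 members, each with 1 start. For Sst and Cartpt, on the reverse strand, this start lies inside the RefSeq gene, which runs on to 23891342 and 99910179. Their windows therefore lie within the gene span. The window of Vip ends inside its gene, which begins at 5639193. In the 250 bases before the start, the element TGACGTCA was found in 2 of these 8 promoters, against 1.55% of all 32851 promoters. Its shorter core TGACG, read on both strands and also counted within the whole element, was found in 6 of 8, against 17.8% of all. The match in Sst, which is also among those of the core, was known beforehand, because the element was first described there. The shares are therefore a description, and no enrichment was tested. These matches describe the reference sequence and no factor's binding was measured. Capitals mark the element in Sst (from position -48 relative to the start) and Cartpt (from -112), and the core in Vip (from -79) and Cck (from -47, on the opposite strand). Npy and Tac2 held neither set of letters in this window. The Cck stretch is chr9:121495695-121495944 (reverse strand), Vip chr10:5638968-5639217 (forward), Tac2 chr10:127724228-127724477 (forward), Sst chr16:23890859-23890918 (reverse) and Cartpt chr13:99900762-99900821 (reverse), each written 5′ to 3′.
Cck: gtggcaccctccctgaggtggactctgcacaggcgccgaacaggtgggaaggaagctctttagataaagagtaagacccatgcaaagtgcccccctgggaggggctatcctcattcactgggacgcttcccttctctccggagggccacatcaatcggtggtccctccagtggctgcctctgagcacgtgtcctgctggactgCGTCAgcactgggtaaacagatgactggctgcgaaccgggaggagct
Vip: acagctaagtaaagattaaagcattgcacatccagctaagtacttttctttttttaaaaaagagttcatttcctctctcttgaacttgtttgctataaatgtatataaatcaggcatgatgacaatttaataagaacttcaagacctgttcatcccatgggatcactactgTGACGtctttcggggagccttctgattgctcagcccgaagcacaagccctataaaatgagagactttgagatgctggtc
Tac2: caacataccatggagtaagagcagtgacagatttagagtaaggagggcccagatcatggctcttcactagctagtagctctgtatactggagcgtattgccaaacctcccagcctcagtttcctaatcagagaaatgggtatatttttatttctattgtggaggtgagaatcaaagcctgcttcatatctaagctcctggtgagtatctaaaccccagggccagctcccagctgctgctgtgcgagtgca
Sst: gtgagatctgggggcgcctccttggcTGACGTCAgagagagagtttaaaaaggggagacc
Cartpt: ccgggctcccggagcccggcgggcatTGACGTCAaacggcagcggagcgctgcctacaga

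The 5 genes with array values differed in how much they varied among mice of the same group. Cck, the precursor of cholecystokinin, had a pooled within-group SD of 0.743 (log2), larger than that of 99.9% of the genes tested, whose median was 0.124. Vip, the precursor of vasoactive intestinal polypeptide, had 0.402, Cartpt, the precursor of CART peptide, 0.309 and Sst, the precursor of somatostatin, 0.287. These were larger than in 99.1%, 97.4% and 96.6% of the genes tested. Tac2, the precursor of neurokinin B, had the smallest SD of the 5 at 0.223, which was still larger than that of 90.1% of the genes tested. For Cck the SD was 0.924 in DBA/2J and 0.501 in C57BL/6J, and for Vip it was 0.467 in DBA/2J and 0.325 in C57BL/6J.

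**Figure D1:**
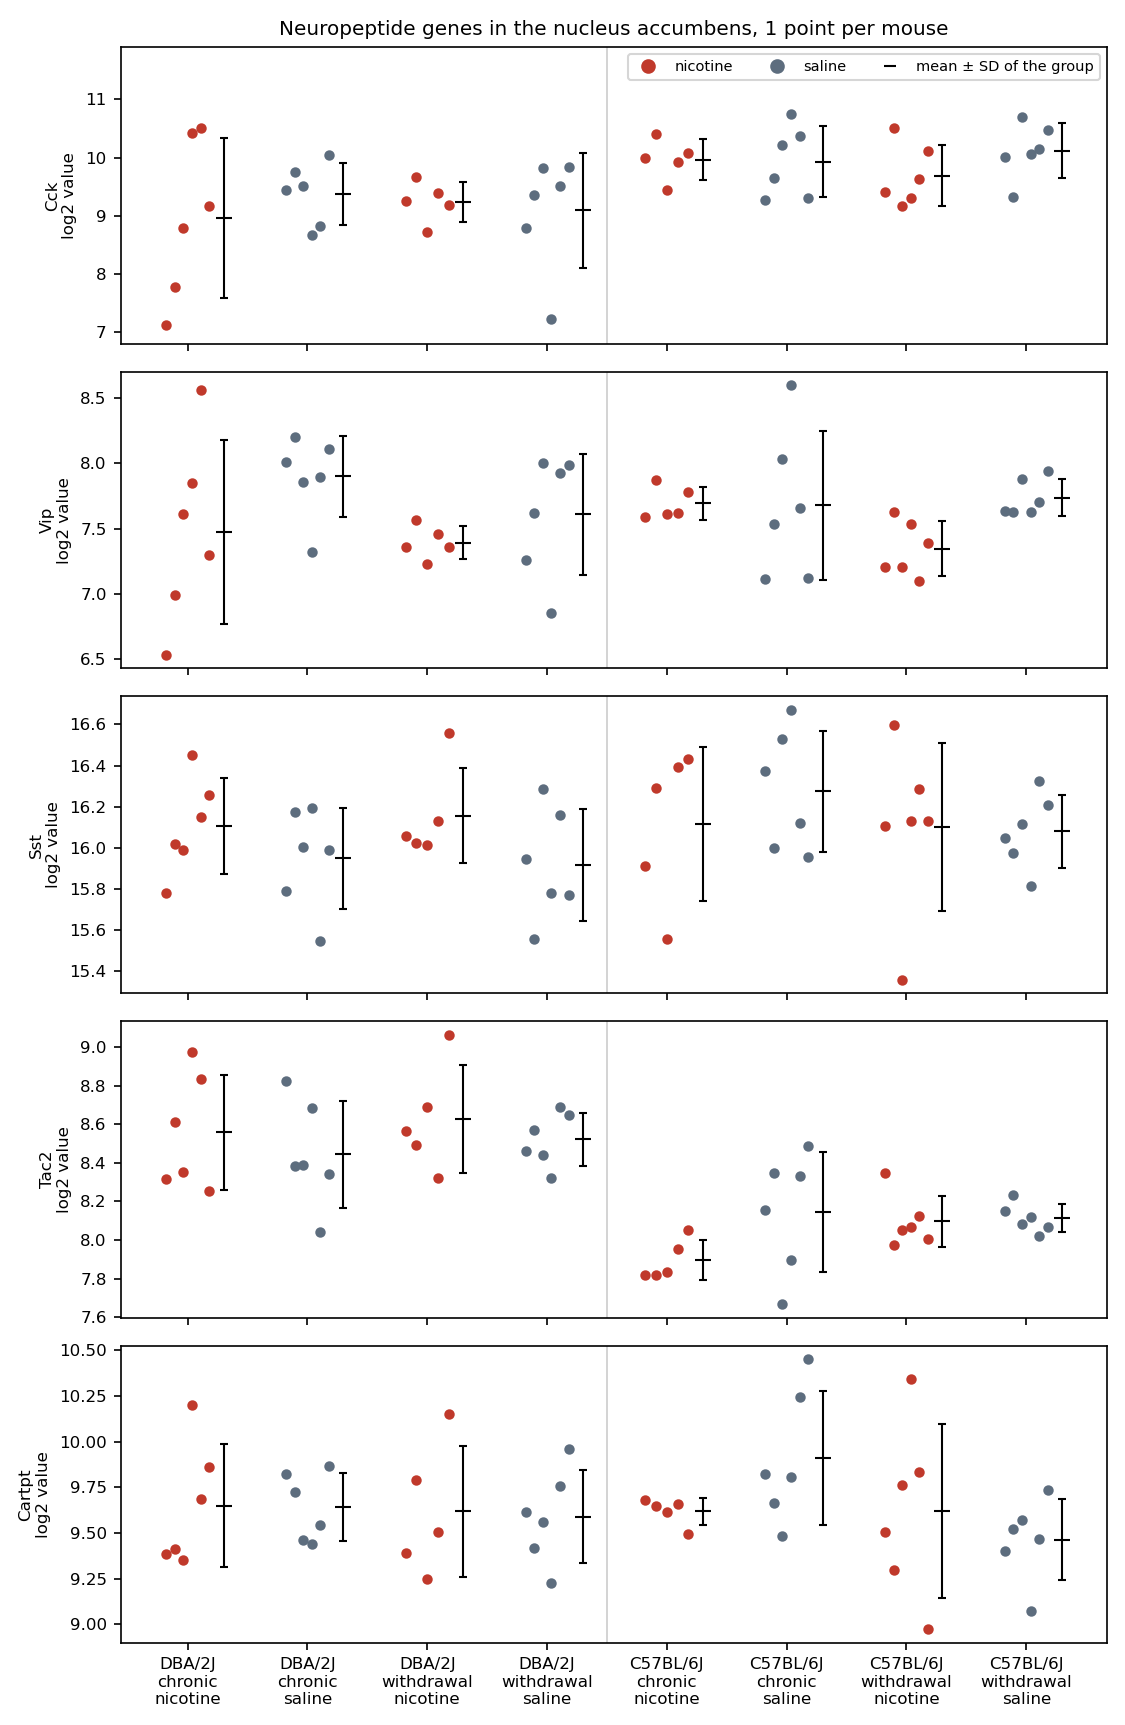
Log2 values of Cck, Vip, Sst, Tac2 and Cartpt (y axes, a separate scale for each gene) in the 8 groups (x axis), with 1 point per mouse, red for nicotine and grey for saline. Black bars are the group mean ± SD. Cck spans 7.12 to 10.51 within DBA/2J chronic nicotine mice, and Tac2 is higher in DBA/2J than in C57BL/6J mice in each pair of groups.

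Strain was the factor that separated a member most clearly. Tac2 was higher in DBA/2J than in C57BL/6J mice, by 0.60 under nicotine (log2, SE 0.09, 1.51-fold, limma adjusted p = 1.51e-06) and by 0.35 under saline (SE 0.09, 1.28-fold, limma adjusted p = 0.00149), each a mean over both phases. Cck was lower in DBA/2J, by -0.79 under saline (SE 0.29, 1.73-fold, adjusted p = 0.0315), while under nicotine its difference of -0.73 (SE 0.30, adjusted p = 0.0719) did not pass. Under saline 2 of 5 members passed, where 31.8% of all genes tested did (12.4% higher and 19.4% lower in DBA/2J), and under nicotine 1 of 5, where 26.2% of all genes did, so the members' share was near the background. A difference in sequence between the strains under a probe can change its signal, and this was not tested.

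Tac2 encodes neurokinin B, a tachykinin that acts mainly on the receptor encoded by Tacr3. Under chronic nicotine it stood at 8.25, 8.48 and 8.97 (lowest, median and highest of 6, log2) in DBA/2J mice, against 7.82, 7.82, 7.83, 7.95 and 8.05 in C57BL/6J mice. The groups did not overlap, and the difference was 0.66 (SE 0.13, limma adjusted p = 1.72e-04). Non-overlap with DBA/2J higher was seen in 5.42% of all genes in this pair of groups.

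After withdrawal from nicotine, Tac2 was 8.56, 8.49, 8.69, 8.32 and 9.07 in the 5 DBA/2J mice, against 7.98, 8.06 and 8.35 (lowest, median and highest of 6) in C57BL/6J mice. Here 1 C57BL/6J mouse reached above the lowest DBA/2J mouse, and the difference was 0.53 (SE 0.13, limma adjusted p = 0.00276). In saline withdrawal mice the values were 8.32, 8.52 and 8.69 in DBA/2J, against 8.02, 8.10 and 8.23 in C57BL/6J, again with no overlap (3.61% of all genes, DBA/2J higher). That difference was 0.41 (SE 0.12, limma adjusted p = 0.0154). In chronic saline mice the strains overlapped widely, with 8.04, 8.39 and 8.83 in DBA/2J against 7.67, 8.24 and 8.49 in C57BL/6J, and the difference of 0.30 (SE 0.12, adjusted p = 0.0883) did not pass. In that pair of groups 19.1% of all genes passed, and 6.42% of all genes passed as higher in DBA/2J.

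**Figure D2:**
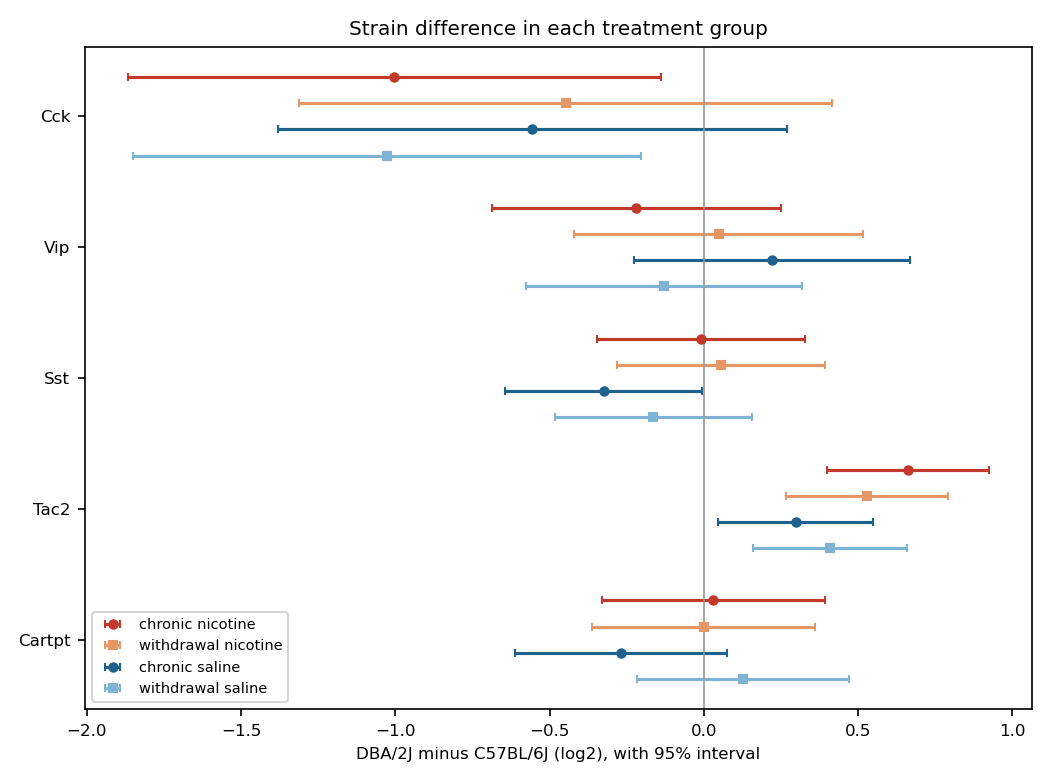
DBA/2J minus C57BL/6J difference (x axis, log2) of each of the 5 genes (y axis) within chronic nicotine, withdrawal nicotine, chronic saline and withdrawal saline mice, as points with 95% intervals from limma. The 4 intervals of Tac2 lie above 0, from 0.05 at the lowest end to 0.92 at the highest, and the 4 points of Cck lie below 0.

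Cck encodes cholecystokinin, a peptide made by cortical and other neurons and carried by some dopamine neurons that project to the accumbens. In chronic nicotine mice it stood at 7.12, 8.97 and 10.51 (lowest, median and highest, log2) in DBA/2J, against 9.99, 10.40, 9.44, 9.93 and 10.07 in C57BL/6J. In withdrawal nicotine mice it was 9.25, 9.66, 8.72, 9.40 and 9.19 in DBA/2J, against 9.17, 9.52 and 10.51 in C57BL/6J. The strains overlapped in both pairs, and 2 DBA/2J chronic nicotine mice lay above every C57BL/6J mouse of their pair while the other 4 lay below all of them.

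Among saline mice, Cck was 8.67, 9.48 and 10.04 in chronic DBA/2J mice against 9.28, 9.93 and 10.75 in chronic C57BL/6J mice. After pump removal it was 7.23, 9.43 and 9.84 in DBA/2J against 9.33, 10.10 and 10.69 in C57BL/6J. Of the 12 DBA/2J saline mice, 11 lay under the C57BL/6J saline mean, and within neither phase did the difference pass (chronic -0.56, adjusted p = 0.378, and withdrawal -1.03, adjusted p = 0.0760). The call under saline was lost without any 1 of C57BL/6J chronic saline mice 4 and 5, C57BL/6J withdrawal saline mouse 3, DBA/2J chronic saline mice 4 and 5 and DBA/2J withdrawal saline mouse 4, with adjusted p from 0.0518 to 0.0824 and differences from -0.75 to -0.60, and with arrays weighted by their quality (-0.63, adjusted p = 0.0631). Under nicotine Cck passed without DBA/2J chronic nicotine mouse 4 (-0.87, adjusted p = 0.0236) or mouse 5 (-0.88, adjusted p = 0.0209), the 2 mice above all C57BL/6J chronic nicotine mice. C57BL/6J withdrawal nicotine mouse 2, at 10.51, was as high as mouse 5.

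The remaining members did not pass between strains. Sst, made by interneurons that also carry neuropeptide Y, was -0.24 under saline (SE 0.11, adjusted p = 0.0924) and 0.02 under nicotine (95% interval -0.22 to 0.26). Vip differed by 0.05 under saline (-0.27 to 0.36) and by -0.09 under nicotine (-0.42 to 0.25). Cartpt differed by -0.07 under saline (-0.32 to 0.17) and by 0.01 under nicotine (-0.24 to 0.27). No strain value could be had for Npy, Tac1, Crh and Trh, because their S-scores compare mice within a strain.

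Nicotine itself changed no member by these tests. On log2 values, 0 of 50 member values (5 genes in 10 contrasts of nicotine with saline and their differences between strains or phases) passed, with a lowest limma adjusted p of 0.501 and 1 unadjusted p under 0.05, and 0 of all 9596 genes (0%) were called in each contrast. The S-scores gave 0 of 90 member values (lowest limma adjusted p = 0.721), with 5 unadjusted p under 0.05, and 0 of 25801 genes (0%) in each. The values do not show that the genes were unaffected: the 95% intervals of the 4 nicotine differences within strain and phase reached -1.25 and 1.02 for Cck, -0.87 and 0.48 for Vip, -0.65 and 0.50 for Cartpt, -0.49 and 0.58 for Sst and -0.51 and 0.37 for Tac2. Both measures come from the same arrays, and comparisons of responses between strains or phases reuse the same saline groups, so these values are not separate evidence.

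**Figure D3:**
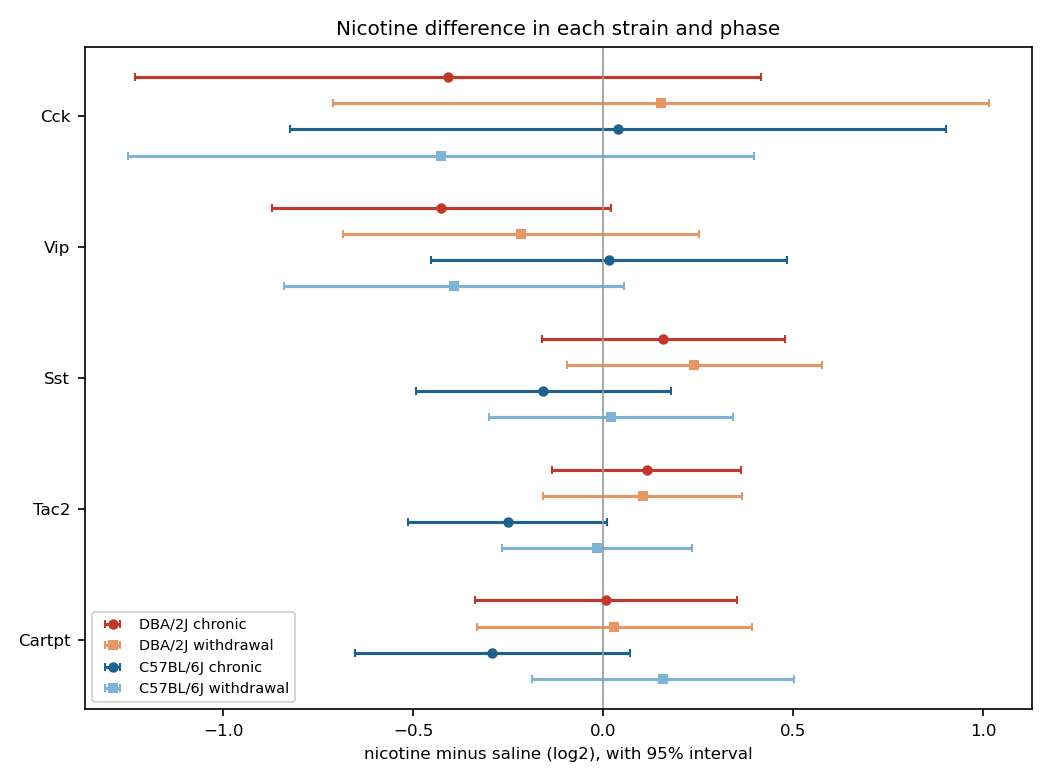
Nicotine minus saline difference (x axis, log2) of each of the 5 genes (y axis) in chronic and withdrawal mice of DBA/2J and C57BL/6J, as points with 95% intervals from limma. Every one of these 20 intervals includes 0, and those of Cck are the widest.

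Tac2 was the member nearest to a strain difference in the response to chronic nicotine. Its nicotine minus saline difference was 0.11 in DBA/2J (SE 0.12) and -0.25 in C57BL/6J (SE 0.13), and these differed by 0.37 (SE 0.18, unadjusted p = 0.0481, limma adjusted p = 0.501). In C57BL/6J the nicotine mice lay between 7.82 and 8.05, against 7.67, 8.24 and 8.49 (lowest, median and highest) in saline mice, so the saline range enclosed the nicotine one. By S-score the 5 C57BL/6J chronic mice were at -1.39, -2.07, -1.97, -1.61 and -1.02, all below 0 (mean -1.61, SE 0.69, unadjusted p = 0.0292, limma adjusted p = 0.99995). The 6 DBA/2J chronic mice ran from -0.69 to 2.28 (mean 0.65), 3 above 0 and 3 below. After withdrawal the Tac2 differences were 0.10 in DBA/2J (SE 0.13) and -0.02 in C57BL/6J (SE 0.12).

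Tac1 encodes the precursor of substance P and neurokinin A and is made by the spiny neurons that carry the dopamine receptor Drd1. Under chronic nicotine its S-scores were 5.50, 1.51, 0.06, 2.04, 0.76 and 2.33 in the 6 DBA/2J mice, all above 0. In the 5 C57BL/6J mice they were -1.95, -3.64, -1.997, 1.05 and -0.97, with 4 below 0. The means of 2.03 (SE 1.16) in DBA/2J and -1.50 (SE 1.22) in C57BL/6J differed by 3.53 (SE 1.68, unadjusted p = 0.0481, limma adjusted p = 0.721). After withdrawal the means were 0.37 in DBA/2J (range -2.93 to 3.42) and 0.62 in C57BL/6J (range -3.36 to 3.45), with mice on both sides of 0. By mean S-score, most markers of the spiny neurons lay on the same side of 0 as Tac1 in chronic mice, although none passed the test. Scores of a group share the same saline mice, and no correlation with Tac1 was computed. In DBA/2J chronic mice the mean S-score was above 0 for 15 of 15 such markers (median 2.18, against -0.07 for all genes), and in C57BL/6J chronic mice it was below 0 for 12 of 15 (median -0.44, against 0.01). The difference between the strains was above 0 for 15 of 15 (median 2.49, against -0.06). On log2 values the mean of the 13 markers with array values ran, in DBA/2J chronic mice, from -0.13 to 0.42 under nicotine and from -0.44 to 0.06 under saline, and in C57BL/6J chronic mice from -0.05 to 0.17 under nicotine and from -0.57 to 0.40 under saline. The part of these cells in the Tac1 values was not tested.

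**Figure D4:**
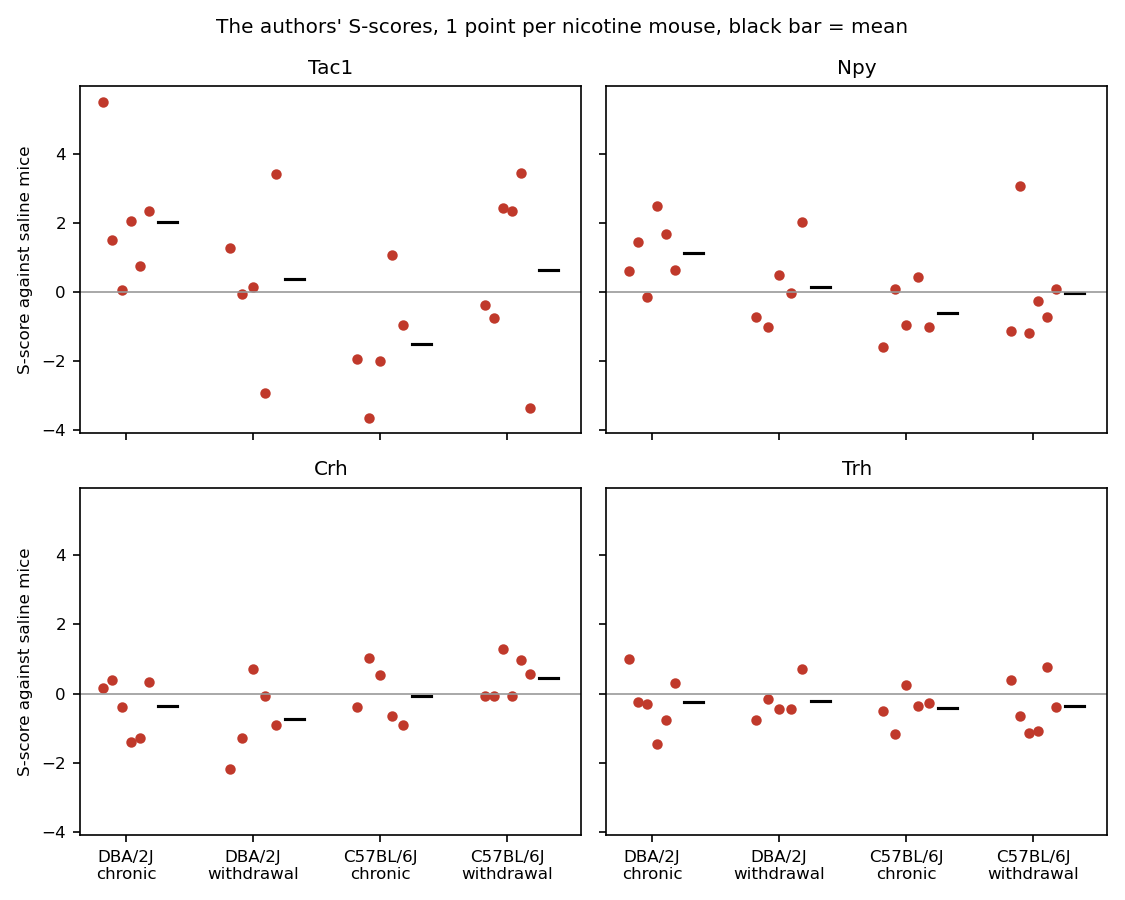
The authors' S-scores (y axis, score units) of Tac1, Npy, Crh and Trh for each nicotine mouse (points) in the 4 nicotine groups (x axis), with the group mean as a black bar. A score of 0 is the level of the saline mice of that strain and phase. Tac1 is above 0 in 6 of 6 DBA/2J chronic mice and below 0 in 4 of 5 C57BL/6J chronic mice, and Trh stays between -1.45 and 1.01.

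The pair of interneuron peptides gave values that did not pass. Npy, the precursor of neuropeptide Y, averaged 1.11 (S-score, SE 0.66) in DBA/2J chronic mice, with 5 of 6 above 0, and -0.61 (SE 0.69) in C57BL/6J chronic mice, with 3 of 5 below 0. Its withdrawal means were 0.15 in DBA/2J and -0.03 in C57BL/6J. Sst had log2 differences of 0.16 (chronic) and 0.24 (withdrawal) in DBA/2J, and of -0.16 (chronic) and 0.02 (withdrawal) in C57BL/6J, with SE between 0.16 and 0.17. In DBA/2J withdrawal mice the Sst S-scores were 2.61, 0.20, 1.27, 1.27 and 1.94, all above 0 (mean 1.46, SE 0.91, unadjusted p = 0.125).

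Vip, carried by a small class of cortical and other interneurons, had a lower mean than in saline mice in 3 of the 4 comparisons, none of which passed. In withdrawal mice its level was 7.36, 7.56, 7.23, 7.46 and 7.36 under nicotine against 6.86, 7.77 and 8.00 (lowest, median and highest) under saline in DBA/2J. In C57BL/6J it was 7.10, 7.30 and 7.63 under nicotine against 7.63, 7.67 and 7.94 under saline, where the highest nicotine mouse just reached the lowest saline mouse. Averaged over the strains this was -0.30 (SE 0.16, unadjusted p = 0.0646, limma adjusted p = 0.9998). The S-scores averaged -1.60 (SE 0.77, unadjusted p = 0.0498, limma adjusted p = 0.99998), below 0 in 5 of 5 DBA/2J and 6 of 6 C57BL/6J mice. Scores of a group are set against the same saline mice, so a shared sign is not separate evidence from each mouse. In chronic mice the difference was -0.43 (SE 0.22) in DBA/2J and 0.02 (SE 0.23) in C57BL/6J.

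Cck differed by -0.41 in chronic and 0.15 in withdrawal DBA/2J mice, and by 0.04 in chronic and -0.43 in withdrawal C57BL/6J mice, with SE between 0.41 and 0.43. Cartpt, whose peptide has been studied in the accumbens for its response to psychostimulants, differed by 0.01 (chronic) and 0.03 (withdrawal) in DBA/2J. In C57BL/6J it differed by -0.29 (chronic) and 0.16 (withdrawal), with SE between 0.17 and 0.18. Its C57BL/6J chronic S-scores were -0.70, -1.82, -1.58, -1.80 and -2.04, all below 0 (mean -1.59, SE 1.02, unadjusted p = 0.136). Crh, the stress peptide corticotropin releasing hormone, had group means from -0.75 in DBA/2J withdrawal mice to 0.44 in C57BL/6J withdrawal mice. Trh, thyrotropin releasing hormone, had means from -0.41 to -0.22, all smaller than their SE.

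Withdrawal and chronic mice were also compared within each drug and strain. None of 20 member values (5 genes, nicotine and saline mice of each strain) passed, with a lowest limma adjusted p of 0.734, and 0 of 9596 genes (0%) were called in each of the 4 contrasts. The 1 value with an unadjusted p under 0.05 was Cartpt in C57BL/6J saline mice. It was 9.08, 9.49 and 9.74 (lowest, median and highest) in withdrawal mice against 9.48, 9.81 and 10.45 in chronic mice, a difference of -0.45 (SE 0.17, unadjusted p = 0.0119, limma adjusted p = 0.998), with overlapping ranges. The corresponding C57BL/6J nicotine groups both averaged 9.62, and the DBA/2J saline groups averaged 9.59 in withdrawal mice and 9.64 in chronic mice.

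Cck and Vip followed each other from mouse to mouse. Across the 46 arrays, with each group's mean removed, they correlated with Pearson's r = 0.867 and Spearman's rho = 0.840. Both had a permutation p of 1e-05, the smallest that 100000 shuffles within groups can give, and an adjusted p of 8.33e-05 over 25 relations computed. Pearson's r was 0.921 in DBA/2J and 0.741 in C57BL/6J, and 0.863 without the 2 arrays farthest from the median of Vip. Sst followed both more weakly (r = 0.466 and rho = 0.469 with Cck, adjusted p = 0.00362 and 0.0116, and r = 0.375 and rho = 0.412 with Vip, adjusted p = 0.0304 and 0.0339). Cartpt and Tac2 correlated at r = 0.438 (adjusted p = 0.0276) and rho = 0.344 (adjusted p = 0.0930), and r fell to 0.310 without the 2 farthest arrays. The remaining 6 pairs of members had an adjusted p of 0.205 or more by either measure. In each of these 6, r was below 0 in C57BL/6J and above 0 in DBA/2J. The widest apart were Vip with Tac2 (-0.642 and 0.324) and Cck with Cartpt (-0.318 and 0.644). These differences between strains were not tested.

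Markers of cortical excitatory neurons moved with Cck and Vip and, more loosely, with Sst. The mean of the 9 tested markers correlated with Cck at r = 0.861 (rho = 0.866) and with Vip at r = 0.835 (rho = 0.795), each with a permutation p of 1e-05 (adjusted p = 8.33e-05). Without the 2 arrays farthest from the median of the marker mean, r was 0.820 for Cck and 0.790 for Vip. For Sst it was r = 0.372 (adjusted p = 0.0485) and rho = 0.368 (adjusted p = 0.0601), and r = 0.329 without the 2 farthest arrays. The mean of 13 striatal spiny neuron markers ran the other way, with r = -0.562 and rho = -0.607 for Cck (adjusted p = 2.5e-04 and 3.75e-04) and r = -0.606 and rho = -0.557 for Vip (adjusted p = 9.5e-04 and 0.0023). For Tac2 the cortical r was -0.147 over all arrays (rho = -0.200, adjusted p = 0.547 and 0.337), but 0.241 in DBA/2J and -0.746 in C57BL/6J. For Cartpt it was -0.0734 (rho = 0.000185, adjusted p = 0.702 and 0.999), but 0.456 in DBA/2J and -0.589 in C57BL/6J. With the spiny neuron marker mean, r for Tac2 was 0.274 (rho = 0.172, adjusted p = 0.252 and 0.419), but -0.0466 in DBA/2J and 0.67 in C57BL/6J. For Cartpt this r was 0.327 (rho = 0.229, adjusted p = 0.119 and 0.28), but -0.0713 in DBA/2J and 0.622 in C57BL/6J. None of these differences between strains was tested. Tac2 also ran against the mean of 8 oligodendrocyte markers (r = -0.341, adjusted p = 0.0899, and rho = -0.379, adjusted p = 0.0448). The part of these cells in the results was not tested beyond the covariate fit for cortical markers.

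**Figure D5:**
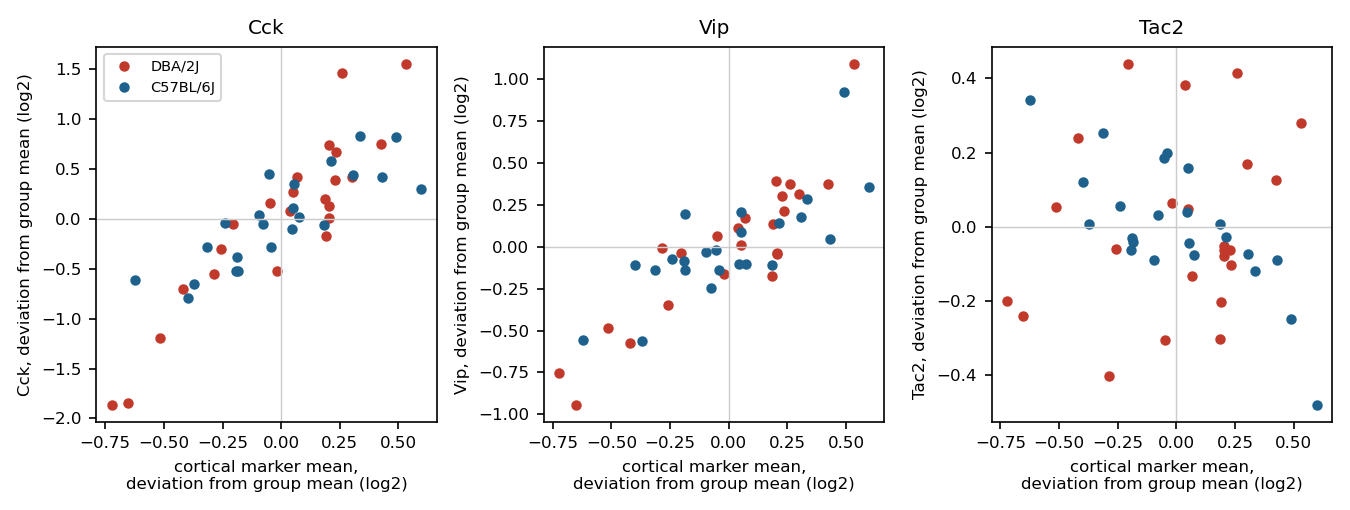
Deviation of Cck, Vip and Tac2 from the group mean (y axes, log2) against the same deviation of the mean of 9 cortical excitatory neuron markers (x axes, log2), 1 point per array, red for DBA/2J and blue for C57BL/6J. Cck and Vip rise along the x axis in both strains, and Tac2 has r = -0.147 over both strains.

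The arrays with the lowest Cck were those with the lowest cortical markers. DBA/2J chronic nicotine mice 1 and 2 had Cck at 7.12 and 7.77, Vip at 6.53 and 6.99 and a cortical marker mean of -0.90 and -0.76 (log2, relative to the mean of all arrays). DBA/2J withdrawal saline mouse 4 had Cck at 7.23, Vip at 6.86 and a marker mean of -0.70. In DBA/2J chronic mice the marker mean ran from -0.90 to 0.29 under nicotine and from -0.35 to 0.31 under saline, and in C57BL/6J withdrawal mice from -0.41 to 0.34 under nicotine and from -0.29 to 0.33 under saline. With the marker mean as a covariate, chosen as one of the alternatives, the nicotine difference of Cck in chronic DBA/2J mice was 0.18 in place of -0.41, and that of Vip was -0.12 in place of -0.43. In withdrawal C57BL/6J mice Cck was at -0.04 in place of -0.43 and Vip at -0.19 in place of -0.39. Others grew: in withdrawal DBA/2J mice the nicotine difference of Vip was -0.37 in place of -0.22 (unadjusted p = 0.00699, limma adjusted p = 0.788), and DBA/2J nicotine mice differed between withdrawal and chronic by -0.49 in place of -0.08 for Vip (unadjusted p = 8.38e-04, which did not pass after adjustment). In the same fit the strain differences of Cck were -0.80 under saline (limma adjusted p = 3.64e-05) and -0.75 under nicotine (adjusted p = 1.97e-04). Those of Tac2 were 0.35 and 0.60. The marker mean cannot be taken to put the strains on a common cortical content, because its member Nrn1 itself differed between them. Nrn1 was higher in DBA/2J by 0.87 under saline (limma adjusted p = 0.00645) and by 0.81 under nicotine (adjusted p = 0.0179). No other marker in the mean passed between strains. The smaller adjusted p of Cck in this fit does not make its call firmer.

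The 3 genes whose deviations were most like each member's, by Pearson's r over 46 arrays among all genes tested, were as follows. For Cck they were Pgm2l1 (0.915), Tenm3 (0.914) and Ptprk (0.913), and for Vip they were Ptprk (0.899), Ppm1e (0.889) and Rap1gap2 (0.888). Sst was closest to Gng3 (0.798), Cd47 (0.741) and Wdr83os (0.733). Tac2 was closest to Pak3 (0.785), Zbtb20 (0.713) and Plxna3 (0.657), and Cartpt to Kcnip1 (0.811), Ptprm (0.733) and Stard5 (0.721).

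Of 21 receptor genes for the 9 peptides, 15 had array values and 11 were bright enough to be tested, and none passed in the 4 comparisons of nicotine with saline. No tachykinin receptor gene was among the 11, so Tacr3 was not tested. Between strains under saline 2 of the 11 were higher in DBA/2J, the TRH receptor gene Trhr2 (0.28) and the VIP receptor gene Vipr2 (0.16). Vipr2 was dim, with saline means of 6.48 in DBA/2J and 6.32 in C57BL/6J, both under the lowest array median of 6.52. A gene this dim can enter the test through the arrays where it is higher, so little weight rests on its call. Another 2 were lower, the somatostatin receptor gene Sstr3 (-0.25) and the VIP receptor gene Vipr1 (-0.26). Under nicotine Trhr2 was higher (0.49), and Sstr3 (-0.31) and Vipr1 (-0.27) were lower. Of all genes tested, 31.8% passed between strains under saline and 26.2% under nicotine, so the receptors' share was near the background. The median of the 11 was 0.02 under saline and 0.08 under nicotine, against -0.02 and 0.02 for all genes.

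Of the 15 genes that process, store or degrade peptides 8 were tested. For this list and those below, the share of all genes tested that passed between strains was 31.8% under saline and 26.2% under nicotine. Cpe, the carboxypeptidase that trims peptide precursors, was lower in DBA/2J under saline (-0.19) and nicotine (-0.18), and Trhde, the enzyme that degrades TRH, was higher under saline (0.23, adjusted p = 0.0488). Among 7 tested interneuron genes, the cholinergic genes Chat (0.30) and Slc5a7 (0.36) and the calcium buffer gene Pvalb (0.44) were higher in DBA/2J under saline and the serotonin receptor gene Htr3a (-0.26) was lower. The same 4 passed under nicotine, with 0.39 for Chat, 0.50 for Slc5a7, 0.49 for Pvalb and -0.24 for Htr3a. Of 15 other peptide genes 4 were tested and none passed between strains. Adcyap1, the precursor of a peptide related to VIP, stood at -0.50 in both comparisons (adjusted p = 0.0605 under saline and 0.0826 under nicotine). None of these genes passed in a comparison of nicotine with saline.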

How the data were processed

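RNA of each mouse was read on 1 array, with RNA integrity numbers above 8 per the labels' protocols. The authors deposited log2 values per array and feature (array medians 6.52 to 6.63), which were used as they stand. Per the file headers, the second deposited table holds an S-score (a score in standardised units) for each of 22 nicotine mice against the saline mice of its strain and phase. For summarisation, scaling and build, nothing is stated in the labels or headers read. Of 48088 features 6732 are controls.

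A gene was tested if it lay above the 50th percentile of non-control features on at least 5 arrays. All 8 groups were fitted with limma 3.58.1 (R 4.3.3), two-sided, with Benjamini-Hochberg adjustment within each contrast at 0.05. For S-scores the number of saline mice entered the error, on the assumption that saline mice vary like nicotine mice. The S-scores hold no values of saline mice, so this spread was assumed and not measured. Every member is named whatever its value. The fits were tested on simulated data. Correlations used permutation within groups (Python 3.11.15, numpy 2.4.6, scipy 1.17.1, pandas 2.3.3, matplotlib 3.10.9). Each array is a separate mouse, and cages and batches are not identified in the labels. The limma p-values set each difference against the spread between these mice, and the number of arrays limits precision. The members and gene lists were chosen with earlier results of these data known. Alternatives are given in the closing section.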

Additional observations from a re-analysis of the deposited data

Results flagged for a closer look

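In the 56 combinations of a member and a group that were examined for a mouse far from its group, 2 had one, where chance gives about 1 in 20. Sst in DBA/2J withdrawal nicotine mouse 5 stood at 16.56 (log2), with the next highest mouse at 16.13. Npy in C57BL/6J withdrawal nicotine mouse 2 had an S-score of 3.06, and the next highest of its group was at 0.07. No member had S-scores above 0 in every mouse of one nicotine group and below 0 in every mouse of another.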

How the results depend on the processing

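The strain difference of Tac2 kept its direction in all alternatives run, from 0.53 to 0.66 under nicotine (0.54 to 0.63 with each mouse left out), where it always passed. Under saline it ran from 0.29 to 0.41 (0.31 to 0.39 with each mouse left out) and passed except within the chronic groups (0.30). Cck under saline, -0.79, did not pass with array weights (-0.63), within the chronic groups (-0.56) or within the withdrawal groups (-1.03), and ran from -0.87 to -0.60 with each mouse left out, passing in 18 of 24. Members passing under saline, 2 in the reported fit (31.8% of all genes), were 0 within chronic (19.1%) and 1 within withdrawal groups (17.9%). With each mouse left out they were 1 to 2, beside 2833 to 3338 of 9596 genes, and with array weights 1. Under nicotine 1 passed in the reported fit (26.2% of all genes). With each mouse left out they were 1 to 2, beside 2278 to 2533 of 9596 genes. With array weights and with the cortical covariate 2 members passed under nicotine. The share of all genes is not given for array weights or the covariate, so those counts are not read as a result about the members.

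Genes passing between strains, 3052 under saline and 2510 under nicotine, were 1995 and 1610 above the 75th percentile, 1835 and 1595 within chronic and 1722 and 1466 within withdrawal groups. Fitting only its groups gave 3 genes for DBA/2J withdrawal nicotine, and array weights gave 2 for C57BL/6J withdrawal against chronic nicotine mice, no member among them. Leaving out a mouse gave 0 to 5 genes for the strain difference of the chronic response (5 without C57BL/6J chronic saline mouse 3), 0 to 1 for that of the withdrawal response and 0 to 1 for the phase difference by S-score in DBA/2J (each 1 without DBA/2J withdrawal nicotine mouse 5). S-scores tested against 0, which ignores the spread of saline mice, gave 5 (C57BL/6J chronic), 113 (DBA/2J chronic), 1 (C57BL/6J withdrawal), 223 (DBA/2J withdrawal), 16 and 485 (strain difference, chronic and withdrawal) and 12 (DBA/2J phase difference) genes, and 0 members. The cause of these shifts was not tested.

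Over all alternatives, 149 of 2024 member values on log2 and 52 of 972 by S-score changed sign, none of them a value past the threshold in the reported fit. With the cortical covariate, Cck did so in the strain difference of the withdrawal response (-0.10 in place of 0.58), in the DBA/2J phase difference of the response (-0.33 in place of 0.56, and for Vip -0.26 in place of 0.21) and, among others, in DBA/2J withdrawal against chronic nicotine mice (-0.51 in place of 0.28). Mouse numbers did not pair the mice (median r -0.002 over 155 same-numbered pairs). With mouse number as a block, 3072 genes and 2 members passed under saline and 2505 and 1 under nicotine, and no member's call changed. Each member had 1 feature, so other features of a gene could not be tried, and Vip did not reach the 75th percentile filter. Within-group SD limits Cck most.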
